A study of Mus musculus with 4 samples.

Results

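The BCL2 family was followed through 10 member genes in the lymphocytes of mouse lymph nodes: Bcl2, Bcl2l1, Mcl1, Bcl2a1b and Bcl2a1d, which encode proteins that block cell death, Bak1, which encodes a pore-forming effector, and Bcl2l11, Bbc3, Pmaip1 and Bmf, which encode BH3-only proteins that trigger it. The members are a selection from the family, given by name, and all 10 were found among the 32285 genes in the files. The study sequenced single cells from the draining lymph nodes of wildtype C57BL/6 mice in 2 control libraries and 2 libraries from mice given 100 µg of extracellular vesicles (EVs) of induced pluripotent stem cells (iPSCs) under the skin. The study's methods and the series design give day 5 for the harvest and the methods name injections of PBS for the controls, whereas the sample labels give a duration of 24 h and call the controls untreated. Age, sex and the number of mice behind each library were not given in the sources used here, and no cell type was enriched before sequencing.

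Lymphocytes were sorted into gates by a few transcripts, counted as unique molecular identifiers (UMIs, 1 per captured RNA molecule). A B gate cell held Cd79a, a part of the B cell receptor, and no Cd3e. A CD4 T gate cell held Cd3e, a part of the T cell receptor complex, together with Cd4 but no Cd8a or Cd79a, and a CD8 T gate cell held Cd3e and Cd8a but no Cd4 or Cd79a. A regulatory T cell (Treg) gate cell held Foxp3, the defining transcription factor of these cells, and Cd3e. The gates held 14686, 5197, 5901 and 636 of the 32725 cells that passed the filters, in that order. UMIs were summed over the cells of a gate in each library, so that each of the 4 libraries gave 1 value. Levels are given as UMIs of a gene per 1000000 UMIs of the gate (CPM). For tested genes the gate's UMIs were those of genes kept for testing, scaled between libraries. For sums of marker lists and for genes too low to test they were all UMIs of the gate, unscaled.

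Proteins of this family decide at the mitochondrion whether a cell lives. Anti-apoptotic members such as BCL2, BCL-XL (Bcl2l1), MCL1 and A1 (Bcl2a1) hold the effectors BAX and BAK in check, and BH3-only proteins such as BIM (Bcl2l11), PUMA (Bbc3), NOXA (Pmaip1) and BMF bind the anti-apoptotic members and so free or activate the effectors. In lymphocytes the balance between BCL2 and BIM sets the lifespan of resting B and T cells, and cytokines such as IL-7 keep T cells alive in part through BCL2.

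Each library held between 7891 and 8529 cells after the filters. The EV libraries differed from the controls in ways that touch every gate. The median UMI count per cell was 5615 and 5811 in the B gate of the EV libraries against 4142 and 4905 in the controls, and 9110 and 9871 against 7397 and 8565 in the CD8 T gate. B gate cells were 59.6% and 50.4% of cells in EV libraries 1 and 2 and 37.0% and 31.7% in control libraries 1 and 2. In the same order, CD4 T gate cells were 11.3% and 14.9% against 17.0% and 20.6%. CD8 T gate cells were 12.3% and 15.9% against 20.7% and 23.6%, and Treg gate cells 1.43% and 1.57% against 2.62% and 2.18%. The B gate showed all 12 B cell markers of a list of 12, and the T cell markers of a list of 10 summed to at most 134 CPM there. The Treg gate was not clean, since its 12 B cell markers summed to 1924 and 849 CPM in the controls and 2186 and 2582 CPM in the EV libraries. Between 12 and 26 cell barcodes were shared by any pair of libraries.

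Promoters of 9 members, all but Pmaip1, and of the near copy Bcl2a1a were searched for short motifs of factors known to act on the family. The windows were the 250 bases before each start site (RefSeq, mouse build GRCm38.p6, both strands). Pmaip1 was left out, so nothing is said here of its promoter. The sequences below are shown because they carry the matches, with the motif in capitals. The FOXO core, GTAAACA, was in the promoters of 2 of 10 genes (9 members and the near copy Bcl2a1a), Bcl2l11 and Bbc3, where 3.54% of all 27025 genes had one. Some genes had several start sites. By window it was in 2 of 17 of these genes, beside 3.17% of 32851 for all genes. The windows of Bcl2a1a, Bcl2a1b and Bcl2a1d were near copies of each other, with 97.5% to 99.5% of aligned bases the same. The match began 227 bases before the start of Bcl2l11 (chr2:128125788-128125857, plus strand) and 167 bases before one start of Bbc3 (chr7:16310054-16310140, plus strand).
Bcl2l11: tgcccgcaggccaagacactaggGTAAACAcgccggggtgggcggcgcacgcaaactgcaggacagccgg
Bbc3: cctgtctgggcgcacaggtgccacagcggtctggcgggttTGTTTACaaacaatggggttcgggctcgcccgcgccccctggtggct
A kappaB motif, the site of NF-kappaB factors, was in promoters of Bcl2l1 (chr2:152830910-152830967, minus strand) and Bbc3 (chr7:16309406-16309496, plus strand), where 8.23% of all genes had one. By window it was in 2 of 17, beside 7.25% for all genes.
Bcl2l1: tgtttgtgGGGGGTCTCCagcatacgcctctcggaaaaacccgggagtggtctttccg
Bbc3: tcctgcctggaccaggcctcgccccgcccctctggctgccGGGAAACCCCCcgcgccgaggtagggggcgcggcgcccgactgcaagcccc
The STAT motif TTCNNNGAA was in promoters of 8.13% of all genes and the heat shock element GAANNTTC in those of 7.73%, and neither was in these windows of the 10 genes. A match is only a run of letters, and no binding was measured.

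The comparison of EV with control libraries asked whether the vesicles changed the transcripts of this family in each lymphocyte type. Of the members tested, Bcl2 in the CD8 T gate passed the test (edgeR, adjusted p under 0.05) and rose. In the CD8 T gate 1 of 10 tested members was called, where 2.2% of all genes tested were. In the B gate 0 of 10 were called (2.55% of all genes), in the CD4 T gate 0 of 9 (1.09%) and in the Treg gate 0 of 9 (0.124%). At an unadjusted p under 0.05 the counts were 3, 2, 1 and 0 members in the B, CD4 T, CD8 T and Treg gates, beside 18.9%, 16.7%, 18.2% and 7.57% of all genes. DESeq2 called Bcl2 in the B and CD8 T gates and no member in the other two, where it left most members of the Treg gate without an adjusted p. EV and control values did not overlap for 5, 3, 4 and 1 members in the same order, beside 51.9%, 49.4%, 49.7% and 37.1% of all genes, so that non-overlap with 2 libraries a group was common.

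**Figure D1:**
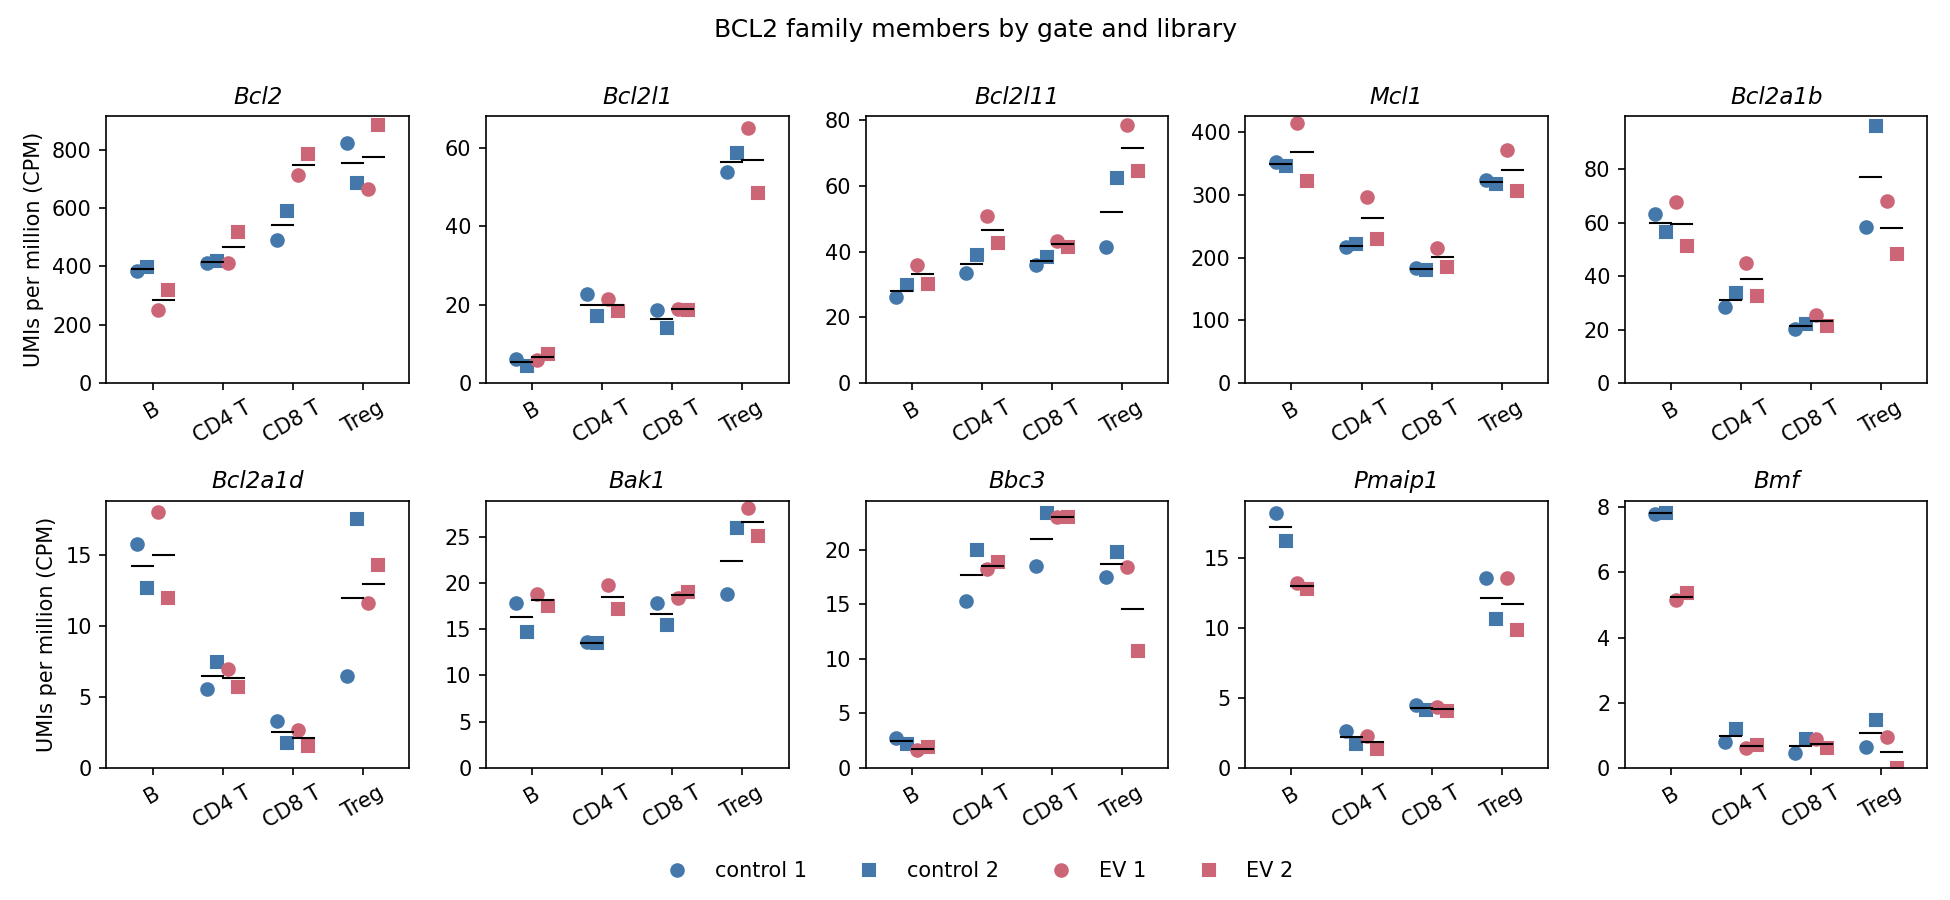
Level of each member (UMIs per 1000000 UMIs of the gate, scaled between libraries for tested genes, CPM, y axis from 0 and different in each panel) in the B, CD4 T, CD8 T and Treg gates, with 1 point per library and black lines for the mean of 2 libraries. Bcl2 of the EV libraries lies below both controls in the B gate and above both in the CD8 T gate.

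Bcl2, the founding survival gene of the family, lies on chr1:106538178-106714274 (minus strand, mm10). It is overlapped by the antisense gene D630008O14Rik, which was counted as its own gene, and on the same strand by Mir3473f and Gm37053, which were not among the genes counted. The level of Bcl2 was higher in CD8 T cells of the EV libraries and its mean was lower in B cells. CD8 T cells held 491 and 590 CPM in the control libraries and 713 and 784 CPM in the EV libraries. This was a 1.38-fold rise (log2 change 0.47, SE 0.11, edgeR adjusted p = 0.0446). In the same gate the 6 NK cell markers of a list, all of them detected, summed to 35.3 to 38.2 CPM in the controls and 68.8 to 69.7 CPM in the EV libraries. The macrophage and monocyte markers, 7 to 10 of 10 detected, summed to 331 to 347 CPM and 391 to 464 CPM. In the CD4 T gate the macrophage and monocyte list summed to 37.0 to 42.0 CPM in the controls and 33.1 to 56.5 CPM in the EV libraries. The NK cell list, 3 to 5 of 6 detected, summed there to 1.24 to 1.86 CPM and 4.86 to 7.36 CPM. A neutrophil list summed there to 0.253 to 0.900 CPM in the controls, 35.5 CPM in EV library 1 and 1.09 CPM in EV library 2. Genes of these lists were not read singly, so the sums do not say which cells carried them. The part of the listed genes in the rise was not tested. Bcl2 in B cells stood at 384 and 399 CPM in the controls and at 250 and 320 CPM in the EV libraries. The B gate values were lower in both EV libraries without overlap, but the change missed the threshold (log2 change -0.46, SE 0.13, edgeR adjusted p = 0.106). There the T cell markers, 9 of 10 detected, summed to 116 to 134 CPM in the controls and 59.0 to 60.6 CPM in the EV libraries, and the germinal centre B cell markers, 6 of 6 detected, to 167 to 177 CPM and 206 to 247 CPM. Their part in the B gate values was not tested. In the CD4 T gate the controls held 411 and 417 CPM and the EV libraries 413 and 518 CPM, so that EV library 1 lay between the controls. The Treg gate held 823 and 688 CPM in the controls and 667 and 884 CPM in the EV libraries, which overlapped widely. The log2 changes of the last 2 gates were 0.17 (SE 0.12, edgeR adjusted p = 0.491) and 0.04 (SE 0.15, adjusted p = 0.983).

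The call of Bcl2 in the CD8 T gate depended on the settings. With each library left out in turn, the rise ran from 0.34 (without control library 1) to 0.61 (without control library 2). It missed the threshold when each cell was thinned to 1000 UMIs (0.40, edgeR adjusted p = 0.131). So did the fits with other limits on cells (0.44, edgeR adjusted p = 0.0901) and without Mki67 or Top2a cells (0.46, adjusted p = 0.0517). The call was kept with the ribosomal limit, without doublets, with stricter gates, without the filter, with other library sizes, a replicate block and DESeq2. The B gate fall was -0.29 without EV library 1 and -0.65 without EV library 2. In fits that left 1 library in a group, that library was taken to vary like the other group, so their calls are not read here. In the CD4 T gate the change was 0.33 without EV library 1 and -0.0002 without EV library 2.

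The difference between the gates was tested within libraries, in a model with a term for each library. The level of Bcl2 in the B gate was 0.934 and 0.955 times that in the CD4 T gate of the same library in the controls, and 0.604 and 0.619 times in the EV libraries. The B to CD8 T ratio was 0.781 and 0.676 in the controls and 0.350 and 0.408 in the EV libraries. Both ratios were lower in each EV library than in either control, and the share of all genes with ratios so apart was not counted. The EV effect on Bcl2 was lower in the B than in the CD4 T gate by 0.65 on the log2 scale (-0.65, SE 0.06, edgeR adjusted p = 2.7e-05), where 1 of 10 members and 1.79% of all genes were called. It was lower in the B than in the CD8 T gate by 0.95 (-0.95, SE 0.08, edgeR adjusted p = 1.3e-05), where again 1 of 10 members and 1.71% of all genes were called. This pair of gates was added after the opposite signs had been seen. Both differences were called under every alternative that was run, with each library left out in turn included, at -0.55 to -0.72 and at -0.84 to -1.06.

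**Figure D2:**
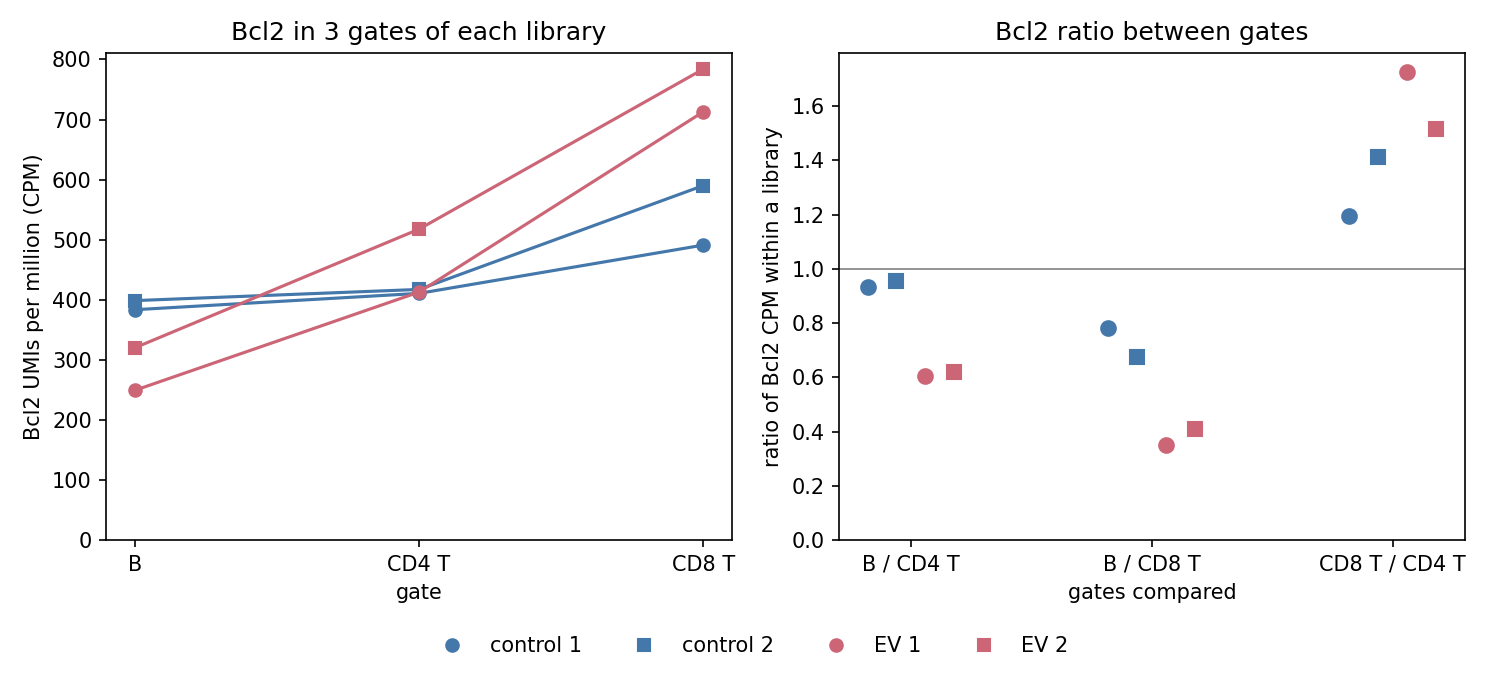
Left, Bcl2 (CPM, y axis from 0) in the B, CD4 T and CD8 T gates, with lines joining the gates of 1 library; right, the ratio of Bcl2 CPM between the gates of the same library, with the grey line at a ratio of 1. The B to CD4 T ratio is 0.934 and 0.955 in the controls and 0.604 and 0.619 in the EV libraries.

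Between the CD8 T and CD4 T gates the EV effect on Bcl2 differed by 0.30 (SE 0.07, edgeR adjusted p = 0.0807), and 0 of 9 members were called beside 0.377% of all genes (at an unadjusted p under 0.05, 1 member and 8.1% of all genes, and 0 members by DESeq2). Between Tregs and CD4 T cells without a Foxp3 UMI 0 of 9 members were called beside 0.224% of all genes (at an unadjusted p under 0.05, 1 member and 5.42% of all genes, and 0 members by DESeq2). The member with the lower p there was Bcl2a1b (-0.88, SE 0.23, edgeR adjusted p = 0.308). Mcl1 differed by -0.21 between the B and CD4 T gates (SE 0.06, edgeR adjusted p = 0.136) and did not pass.

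The share of cells with a Bcl2 UMI was compared with depth held equal. With each cell thinned to 1000 UMIs, 27.2% and 28.0% of B gate cells of the controls held a Bcl2 UMI (exact 95% intervals 25.6 to 28.8 and 26.2 to 29.8), against 18.4% and 23.1% in the EV libraries (17.4 to 19.6 and 21.8 to 24.4). In the CD8 T gate the thinned shares were 30.7% and 35.1% in the controls (28.5 to 32.9 and 32.9 to 37.3) and 39.5% and 40.1% in the EV libraries (36.4 to 42.6 and 37.4 to 42.7). The unthinned shares were 60.7%, 67.0%, 54.0% and 59.3% in the B gate and 73.4%, 81.0%, 83.6% and 82.9% in the CD8 T gate, for control libraries 1 and 2 and EV libraries 1 and 2. In the Treg gate the thinned shares were 45.5% and 32.0% in the controls and 37.6% and 37.3% in the EV libraries, with intervals that overlapped, and their order was not that of the levels. No gate is known to lack Bcl2, so no background share could be set beside these, and the intervals cover counting error only. Between 6 and 9 B gate cells and no CD8 T gate cells of a library were too shallow to be thinned.

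Mcl1, a survival protein with a short half-life, did not pass in any gate. In the CD4 T gate it stood at 217 and 221 CPM in the controls and 297 and 229 CPM in the EV libraries (log2 change 0.26, SE 0.12, edgeR adjusted p = 0.301). B cells held 353 and 346 CPM in the controls and 414 and 322 CPM in the EV libraries, on both sides of the controls. EV library 1 was the high library in all 4 gates, with 216 CPM in the CD8 T gate and 372 CPM in the Treg gate. Without EV library 2 the change of Mcl1 was 0.44 in the CD4 T gate and 0.25 in the CD8 T gate.

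Bcl2l1, which encodes BCL-XL, ranged from 4.42 to 7.52 CPM in the B gate, from 17.2 to 22.8 CPM in the CD4 T gate, from 13.9 to 19.0 CPM in the CD8 T gate and from 48.4 to 65.0 CPM in the Treg gate. Its log2 changes lay between 0.00 and 0.35 and none passed (edgeR adjusted p from 0.411 to 0.998). The Bcl2a1 genes encode A1, a target of NF-kappaB, in several near-identical copies on chromosome 9. The longest transcripts of Bcl2a1b and Bcl2a1d shared 99.1% of aligned bases, and 99.3% in the last 300 bases, from which this 3′ assay reads, so that the split of reads between the copies is uncertain. Bcl2a1b held 28.6 and 33.7 CPM in the CD4 T gate of the controls and 45.1 and 32.4 CPM in the EV libraries. With Bcl2a1a, Bcl2a1b and Bcl2a1d summed the log2 changes were 0.01, 0.24, 0.10 and -0.29 in the B, CD4 T, CD8 T and Treg gates (SE 0.14, 0.15, 0.11 and 0.24), and the edgeR adjusted p lay between 0.443 and 0.972. Without EV library 2 the change of Bcl2a1b in the CD4 T gate was 0.53.

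Bak1, the member that forms pores in the outer mitochondrial membrane, stood at 13.6 and 13.5 CPM in the CD4 T gate of the controls and at 19.7 and 17.2 CPM in the EV libraries. The groups did not overlap there, but the change missed the threshold (log2 change 0.44, SE 0.14, edgeR adjusted p = 0.15), and it was 0.55 without EV library 2. In the other gates its log2 changes were 0.16 to 0.26. Bax, the other effector and no member here, held 81.9 and 77.5 CPM in the CD4 T gate of the controls and 95.5 and 93.2 CPM in the EV libraries. CD8 T cells held 82.8 and 84.5 CPM of it in the controls and 97.7 and 100.4 CPM in the EV libraries. Neither gate overlapped, but no change of Bax was called (0.24 in both, edgeR adjusted p = 0.199 and 0.126), and it overlapped in the B gate (0.06, adjusted p = 0.771).

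Bcl2l11, which encodes BIM and opposes BCL2 directly, had higher means in the EV libraries in all 4 gates, none of which passed. B cells held 26.1 and 29.8 CPM in the controls and 35.9 and 30.2 CPM in the EV libraries. In the CD4 T gate the controls held 33.4 and 38.9 CPM and the EV libraries 50.8 and 42.5 CPM. CD8 T cells of the controls held 36.0 and 38.3 CPM and the EV libraries 43.1 and 41.5 CPM. The Treg gate held 41.5 and 62.5 CPM in the controls and 78.6 and 64.6 CPM in the EV libraries. Both EV libraries were above both controls in each gate, by little in the B and Treg gates. Of all genes 51.9%, 49.4%, 49.7% and 37.1% did not overlap in the B, CD4 T, CD8 T and Treg gates, in either direction. How many genes did so in all gates was not counted. The log2 changes were 0.25, 0.36, 0.18 and 0.47 in the B, CD4 T, CD8 T and Treg gates (SE 0.12, 0.12, 0.09 and 0.23), with edgeR adjusted p values of 0.291, 0.175, 0.294 and 0.684. The 4 gates come from the same 4 libraries and are not independent. Without EV library 2 the change was 0.36 in the B gate and 0.49 in the CD4 T gate.

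The other BH3-only genes had lower means in B cells of the EV libraries. Bmf, a sensor of lost attachment and cytoskeletal stress, stood at 7.81 and 7.81 CPM in the B gate of the controls and at 5.14 and 5.38 CPM in the EV libraries (log2 change -0.57, SE 0.16, edgeR adjusted p = 0.107). Pmaip1, which encodes NOXA, the partner of MCL1, stood at 18.3 and 16.2 CPM in the controls and at 13.2 and 12.8 CPM in the EV libraries (log2 change -0.41, SE 0.11, edgeR adjusted p = 0.108). Neither group pair overlapped and neither passed the threshold. The change of Pmaip1 was -0.43 without EV library 1. Bbc3, a p53 target that encodes PUMA, rested on 30 to 50 UMIs per library in the B gate, where it held 2.72 and 2.21 CPM in the controls and 1.61 and 1.91 CPM in the EV libraries (log2 change -0.49, SE 0.28, edgeR adjusted p = 0.384). In the T cell gates Bbc3 overlapped between the groups, and Bmf held 15 UMIs or fewer in each library, too few to be tested in the CD4 T and Treg gates.

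**Figure D3:**
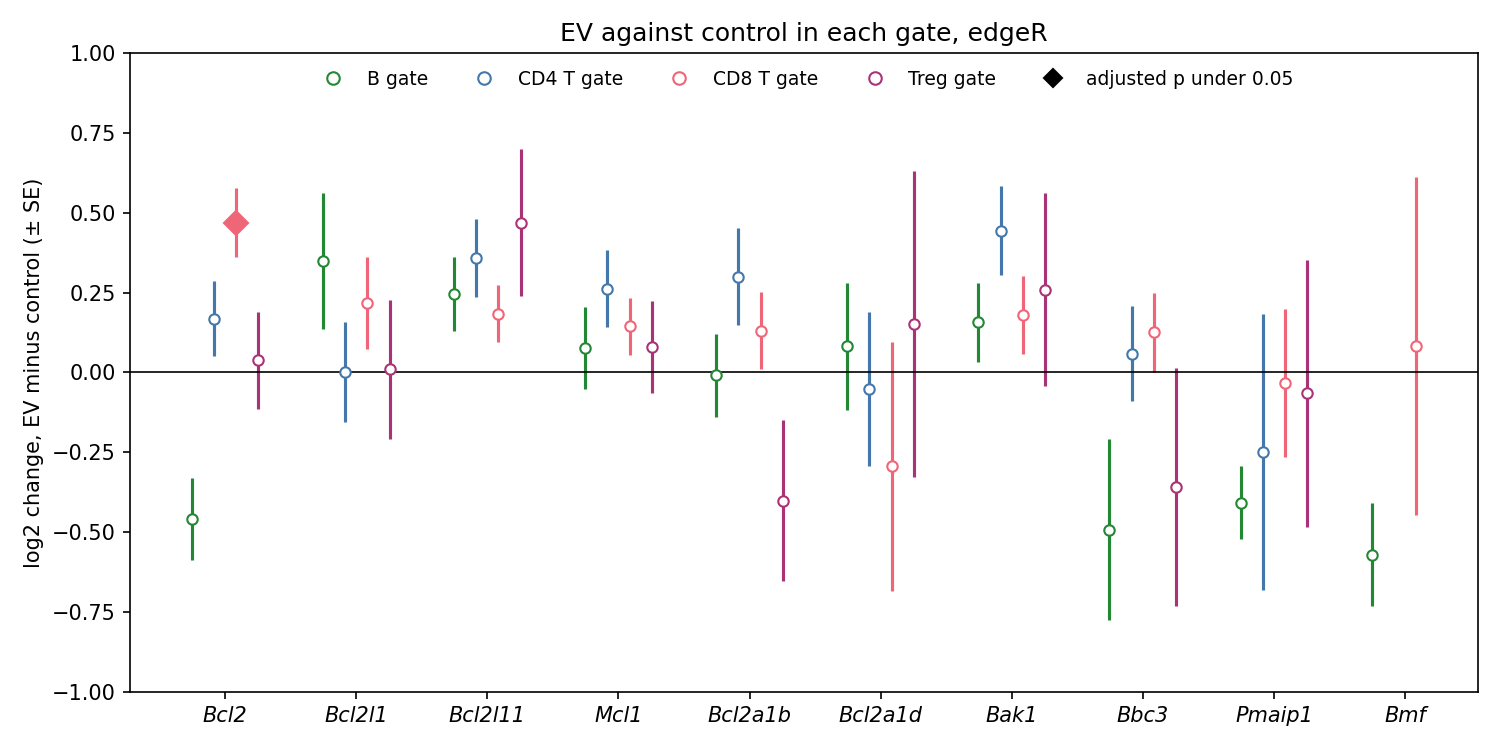
Log2 change of each member, EV minus control (y axis, points with ± SE from edgeR, 2 libraries a group), in each gate; filled diamonds mark an adjusted p under 0.05. Bcl2 in the CD8 T gate, at 0.47, carries the diamond, and Bcl2 in the B gate lies at -0.46.

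The UMIs of BIM and BCL2 transcripts were set against each other within each library, which needs no scaling between libraries. B cells held 6.80 and 7.46 Bcl2l11 UMIs per 100 Bcl2 UMIs in the controls (exact 95% intervals 6.10 to 7.56 and 6.73 to 8.26), and 14.4 and 9.44 in the EV libraries (13.5 to 15.3 and 8.76 to 10.2). Both EV libraries lay above both controls with intervals that did not meet. In the CD8 T gate the ratios were 7.34 and 6.49 in the controls and 6.04 and 5.30 in the EV libraries, which were lower in both, though the intervals of control library 2 (5.98 to 7.03) and EV library 1 (5.48 to 6.66) met. The CD4 T gate held 8.14 and 9.31 in the controls and 12.3 and 8.22 in the EV libraries, and the Treg gate 5.04 and 9.09 against 11.8 and 7.30, with overlap in both gates. For Mcl1, B cells held 92.0 and 86.8 UMIs per 100 Bcl2 UMIs in the controls and 166 and 101 in the EV libraries. For Pmaip1, they held 5.17 and 4.69 UMIs per 100 Mcl1 UMIs in the controls and 3.19 and 3.97 in the EV libraries. That ratio of a BH3-only to a survival gene was thus lower in both EV libraries. The intervals of control library 2 (4.07 to 5.37) and EV library 2 (3.55 to 4.43) met. No test was run on these ratios, and the intervals cover counting error only.

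**Figure D4:**
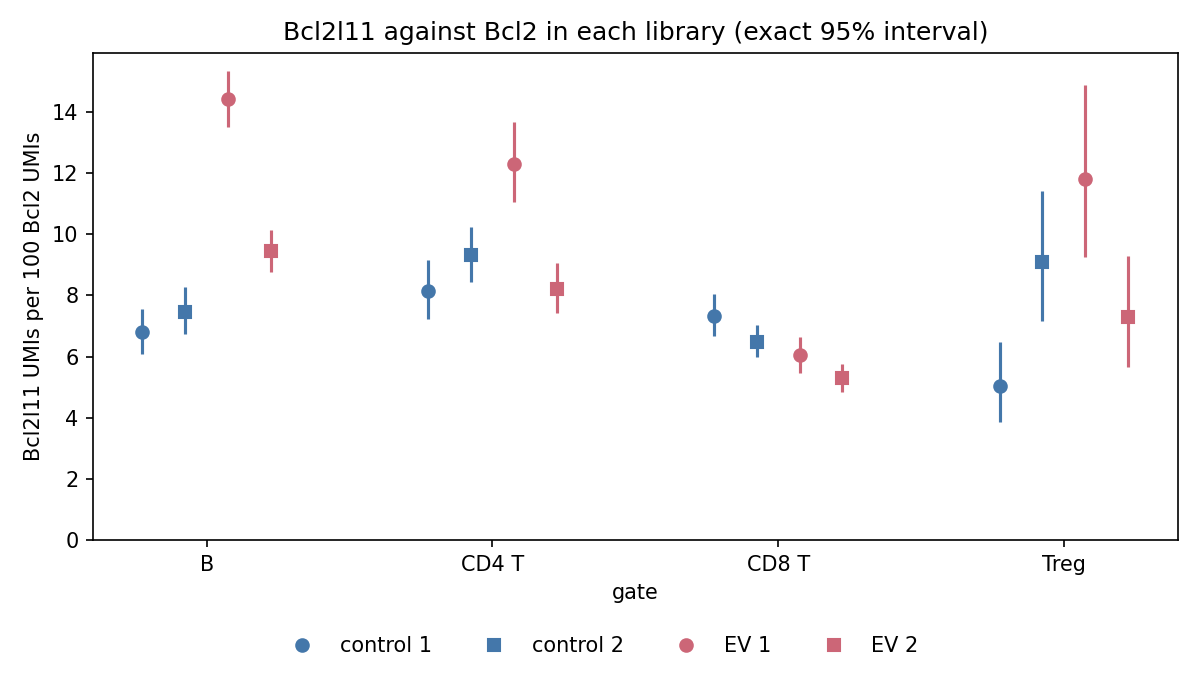
Bcl2l11 UMIs per 100 Bcl2 UMIs (y axis from 0) in each gate and library, with exact 95% intervals that cover counting error only. In the B gate the EV libraries lie at 14.4 and 9.44 and the controls at 6.80 and 7.46.

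The gates also differed in how much of each family gene they held, in fits that took control and EV libraries together. Over all 4 libraries, B cells held more Pmaip1 and Bmf and less Bbc3 and Bcl2l1 than CD4 T cells. The log2 differences were 2.90 for Pmaip1 (SE 0.14, edgeR adjusted p = 1.4e-07), 2.92 for Bmf (SE 0.19, adjusted p = 9.6e-07), -3.19 for Bbc3 (SE 0.16, adjusted p = 1.5e-07) and -1.76 for Bcl2l1 (SE 0.12, adjusted p = 1.4e-06). B cells also held more Mcl1 (0.54), Bcl2a1b (0.73) and Bcl2a1d (1.11) and less Bcl2 (-0.44) and Bcl2l11 (-0.48), all called and in the same direction in 4 of 4 libraries. Bak1 did not differ beyond its error (0.06, SE 0.09). Thus 9 of 10 members were called, where 67.4% of all genes were. Against CD8 T cells 9 of 10 were called as well, beside 71% of all genes, with Bbc3 at -3.56 (SE 0.15), Bmf at 3.09 (SE 0.22) and Bcl2 at -1.04 (SE 0.17). This Bcl2 value mixes the groups, since the B to CD8 T ratio was 0.781 and 0.676 in the controls and 0.350 and 0.408 in the EV libraries. The lower Bcl2 of B than CD4 T cells was near the threshold without EV library 2 (-0.32, edgeR adjusted p = 0.0505), and the ratio within each control library was close to 1.

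CD8 T cells held more Bcl2 than CD4 T cells in 4 of 4 libraries (0.60, SE 0.06, edgeR adjusted p = 2.4e-06), with more Pmaip1 (1.17, SE 0.19) and Bbc3 (0.34, SE 0.06) and less Mcl1 (-0.26, SE 0.03), Bcl2a1b (-0.57, SE 0.06) and Bcl2a1d (-1.44, SE 0.21). These 6 of 9 members were called beside 39.8% of all genes. Bcl2l11 (0.02, SE 0.06) and Bcl2l1 (-0.12, SE 0.08) did not differ beyond their errors, and Bak1 was at the edge (0.22, SE 0.08, edgeR adjusted p = 0.0509). With each cell thinned to 1000 UMIs neither the lower Bcl2a1b (-0.26, edgeR adjusted p = 0.359) nor the higher Bbc3 (0.15, adjusted p = 0.705) was called, and DESeq2 did not call Bbc3 (0.35, adjusted p = 0.0564).

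Tregs held more of 8 of 9 members than CD4 T cells without a Foxp3 UMI, where 23.8% of all genes were called in either direction. The log2 differences were 3.22 for Pmaip1 (SE 0.34, edgeR adjusted p = 1.5e-06), 1.56 for Bcl2l1 (SE 0.13, adjusted p = 1.2e-07), 1.00 for Bcl2a1b (SE 0.16), 0.95 for Bcl2a1d (SE 0.27), 0.75 for Bcl2 (SE 0.06), 0.56 for Bak1 (SE 0.16), 0.50 for Bcl2l11 (SE 0.10) and 0.38 for Mcl1 (SE 0.06). Each was higher in 4 of 4 libraries. Bbc3 was the exception (-0.22, SE 0.19, edgeR adjusted p = 0.463). The Treg gate asked for no Cd4 UMI and allowed Cd8a and Cd79a, unlike the CD4 T gate. Its cells numbered 213, 172, 117 and 134 in control libraries 1 and 2 and EV libraries 1 and 2. Of these, 95, 93, 54 and 65 also met the CD4 T rule. Between 12 and 28 cells per library held Cd79a and between 7 and 21 held Cd8a. Treg gate cells that met the CD4 T rule were not compared alone. B cells also carried Pmaip1 and the Treg gate held B cell markers, so the gates were drawn again without T cells that held a Cd79b, Ms4a1 or Igkc UMI. Pmaip1 was then higher by 3.02 (edgeR adjusted p = 9.9e-06), Bcl2l1 by 1.26 and Bcl2 by 1.00, whereas Bcl2a1d (0.44, adjusted p = 0.493) and Bak1 (0.52, adjusted p = 0.073) were not called. Those 2 genes also lost their calls with DESeq2 and without control library 2 (0.78 and 0.46, edgeR adjusted p = 0.125 and 0.106), Bcl2a1d without EV library 2 (0.82, adjusted p = 0.0833) and Bak1 without cycling cells (0.42, adjusted p = 0.122). Bcl2l11 lost its call with cells thinned (0.32, edgeR adjusted p = 0.61) and with the other limits on cells (0.22, adjusted p = 0.117). From low to high the means of Bcl2 ran from B over CD4 T to CD8 T cells, and the CD8 T and Treg gates, which overlapped in range, were not tested against each other.

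**Figure D5:**
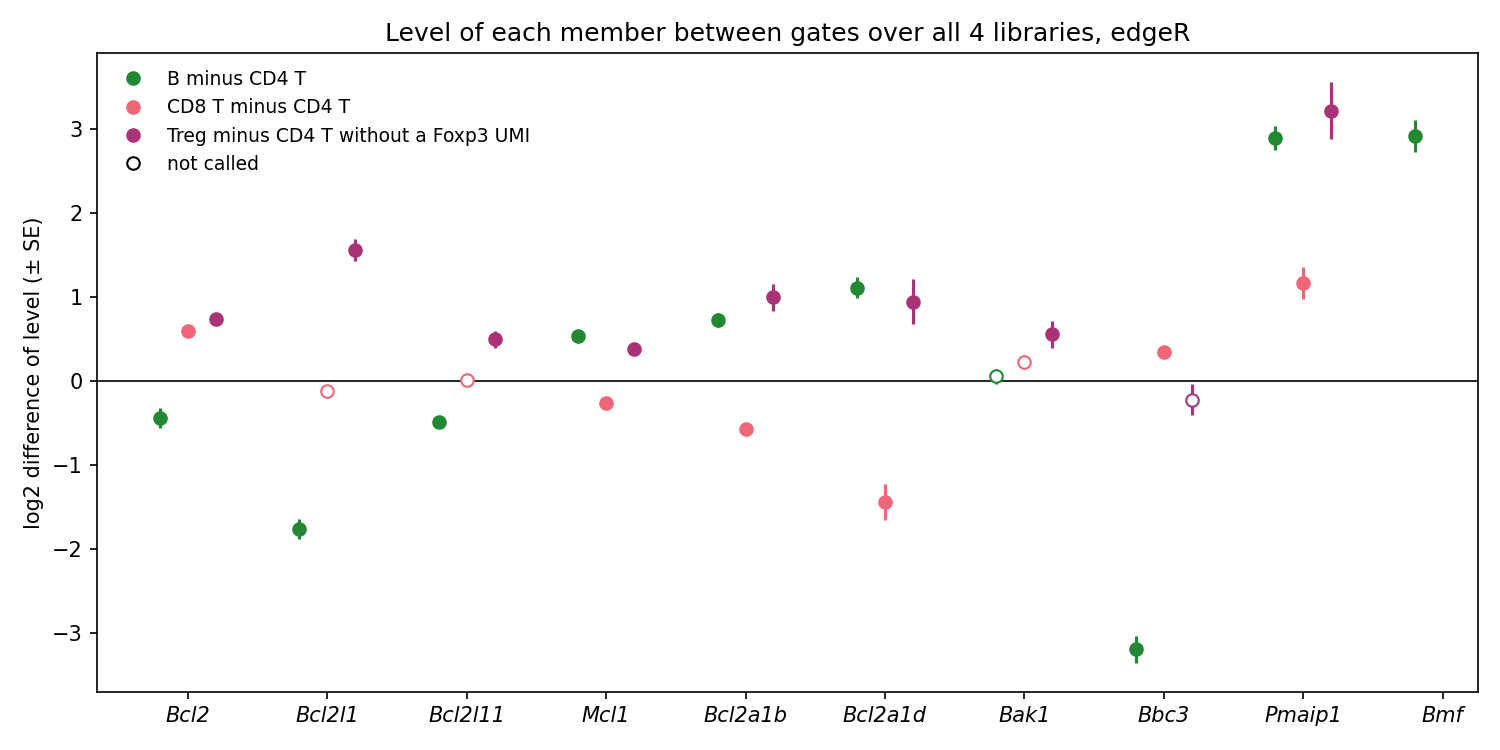
Log2 difference in the level of each member between gates over all 4 libraries (y axis, points with ± SE from edgeR), for B minus CD4 T, CD8 T minus CD4 T and Treg minus CD4 T without a Foxp3 UMI; open points were not called. Pmaip1 in B cells and Tregs and Bmf in B cells lie near 3, and Bbc3 in B cells lies at -3.19.

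Over the 16 sums of 4 gates and 4 libraries, the genes whose log2 levels ran most closely with a member were sought among 8709 genes tested in all gates. For Bcl2 these were Ifnar2, a subunit of the type I interferon receptor (Pearson r = 0.94), AW112010 (r = 0.90) and Mbd2, a reader of methylated DNA (r = 0.90). For Bcl2l11 they were Ebp, an enzyme of sterol synthesis, Batf, a transcription factor of activated lymphocytes, and Pomp, an assembly factor of the proteasome (all r = 0.97). For Bcl2a1b they were Nfkbia, the inhibitor and target of NF-kappaB (r = 0.96), Vamp8 (r = 0.95) and Ephx1 (r = 0.95). These values describe sums that share libraries and carry large differences between gates.

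Around the members, the rest of the death pathway was read from lists of genes. Of the caspase cascade downstream of mitochondria (15 genes, such as Apaf1), the inhibitors of apoptosis (7), the death receptor pathway (12) and the other BCL2-like genes (9), no gene was called in any gate by edgeR or by DESeq2. Of all genes edgeR called 2.55%, 1.09%, 2.2% and 0.124% in the B, CD4 T, CD8 T and Treg gates. At an unadjusted p under 0.05 between 0 and 3 genes of each list passed in a gate, where 18.9%, 16.7%, 18.2% and 7.57% of all genes did in the B, CD4 T, CD8 T and Treg gates. Their median log2 changes lay between -0.04 and 0.16, where the median of all genes lay between -0.00159 and 0.00267. Of the p53 targets, 1 of 7 was called in the CD8 T gate, beside 2.2% of all genes. It was the nuclease gene Aen, at 21.7 and 19.1 CPM in the controls and 28.7 and 29.1 CPM in the EV libraries (0.51, SE 0.11, edgeR adjusted p = 0.0308). The p53 list was called in no other gate, with 1, 2 and 0 genes at an unadjusted p under 0.05 in the B, CD4 T and Treg gates, and DESeq2 called none in the 4 gates.

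Of the survival cytokine inputs upstream, 1 of 22 was called in the B gate, beside 2.55% of all genes. In the CD8 T gate 2 of 21 were called, beside 2.2% of all genes, and both rose. Il2rb, the receptor chain shared by IL-2 and IL-15, stood at 68.5 and 71.1 CPM in the controls and at 114 and 96.9 CPM in the EV libraries (0.59, SE 0.09, edgeR adjusted p = 0.00801). The NK cell markers of this gate, at 35.3 to 38.2 CPM in the controls and 68.8 to 69.7 CPM in the EV libraries, moved with it, and their part was not tested. Stat3, a signal transducer of cytokine receptors, rose in the CD8 T gate (0.45, SE 0.09, edgeR adjusted p = 0.0256) and in the B gate, from 111 and 119 CPM to 246 and 166 CPM (0.84, SE 0.16, adjusted p = 0.0386). In the CD4 T gate its change was 0.58 (edgeR adjusted p = 0.051). No other gene of this list was called by edgeR, with 7 of 22, 6 of 20, 7 of 21 and 2 of 21 genes at an unadjusted p under 0.05 in the B, CD4 T, CD8 T and Treg gates (18.9%, 16.7%, 18.2% and 7.57% of all genes), and DESeq2 called 1, 1, 3 and 0. The 12 transcription factors upstream of BH3-only genes included 1 gene called by edgeR, Egr1, an immediate early factor. It fell in the B gate (-0.78, SE 0.13, edgeR adjusted p = 0.0262) and in the CD8 T gate (-0.63, SE 0.13, adjusted p = 0.0251). Its changes were positive and not called in the CD4 T gate (0.30, SE 0.19, edgeR adjusted p = 0.446) and the Treg gate (0.62, SE 0.35, adjusted p = 0.731). Thus 1 of 10 tested factors was called in the B gate and 1 of 10 in the CD8 T gate, beside 2.55% and 2.2% of all genes. DESeq2 called 2, 1, 0 and 0 genes of the list in the B, CD4 T, CD8 T and Treg gates. Egr1 also stood on the list of dissociation early response genes, of which edgeR called no other and DESeq2 called 2 in the B gate and none in the other gates.

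Of 12 genes for the turnover of MCL1 and BIM, Dynll1 was called. It encodes the dynein light chain that can hold BIM at microtubules, and it rose in the B gate (0.54, SE 0.11, edgeR adjusted p = 0.0469), in the CD4 T gate (0.80, SE 0.12, adjusted p = 0.0134) and in the CD8 T gate (0.79, SE 0.11, adjusted p = 0.00335). CD8 T cells held 174 and 206 CPM in the controls and 302 and 357 CPM in the EV libraries, without overlap. In the Treg gate its change was 0.64 (edgeR adjusted p = 0.19). Of all genes 2.55%, 1.09%, 2.2% and 0.124% were called in the B, CD4 T, CD8 T and Treg gates. At an unadjusted p under 0.05 (edgeR), 5 of 12, 3 of 12, 6 of 12 and 1 of 11 turnover genes passed in the same order. Of all genes 18.9%, 16.7%, 18.2% and 7.57% did.

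Heat shock genes moved with the EV group in every gate. Called as higher were 8 of 10 in the B gate, 6 of 9 in the CD4 T gate, 8 of 10 in the CD8 T gate and 5 of 8 in the Treg gate, with median log2 changes of 0.83, 0.78, 0.77 and 0.82. Of all genes 2.55%, 1.09%, 2.2% and 0.124% were called in these gates, in either direction. Hspa8, an abundant chaperone, rose from 414 and 462 CPM to 991 and 1048 CPM in the B gate (1.22, SE 0.11, edgeR adjusted p = 0.00321), and Hsph1 rose by 1.26 to 1.53 over the 4 gates. Dnaja1 and Hsp90aa1 were called in all 4 gates as well and Hspd1 in 3. Their part in the values of the members was not tested. Library sizes were also taken without these genes, the ribosomal and mitochondrial ones and a few further named genes, Cdk8 among them. The change of Bcl2 was then -0.46 in the B gate and 0.47 in the CD8 T gate. Of 10 cycling genes, Mki67 was called as lower in the CD8 T gate (-1.37, SE 0.32, edgeR adjusted p = 0.0481), where it held 4.09 and 4.23 CPM in the controls and 2.16 and 1.15 CPM in the EV libraries, and DESeq2 called no cycling gene in any gate. The median change of the cycling genes tested was 0.23 in the B gate, -1.13 in the CD4 T gate, 0.10 in the CD8 T gate and -0.83 in the Treg gate, so that Mki67 went against the median of its list in CD8 T cells. No other cycling gene was called. At an unadjusted p under 0.05 (edgeR), 2 of 10, 4 of 8, 5 of 10 and 2 of 6 passed in the B, CD4 T, CD8 T and Treg gates. Of all genes 18.9%, 16.7%, 18.2% and 7.57% did.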

How the data were processed

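Draining lymph node cells were measured by droplet 3′ single-cell RNA sequencing (10x v3.1), 1 library for each of 2 control and 2 EV-treated biological replicates. The authors deposited raw UMI counts per gene and barcode, made with Cell Ranger 7.1.0 on mm10 per the submitters' processing notes. Which annotation release was used, and whether introns counted, is not given in the sources used here. Groups came from the labels. Libraries held 50749656 to 70418672 UMIs.

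A cell passed with between 200 and 5000 detected genes, no more than 20000 UMIs and a mitochondrial share under 10%. Counts were summed per library and gate. Treg gate cells also counted in the CD4 T gate where its rule was met (54 to 95 per library), so Tregs were compared with CD4 T cells without a Foxp3 UMI. Sums were filtered (filterByExpr), scaled by TMM (factors 0.978 to 1.02) and tested with edgeR's quasi-likelihood test over all genes with Benjamini-Hochberg adjustment (threshold 0.05), with a term for library between gates. Changes are EV minus control. Each edgeR SE was derived from the test, as the size of the log2 change divided by the square root of its F statistic. The EV against control test within a gate was also run on simulated data, and the tests between gates were not. P-values rest on 2 libraries a group, with each gene's spread moderated by that of the other genes. They cover no spread beyond these libraries. The tests between gates rest on differences between gates within the same libraries. Software was Python 3.11.15, scanpy 1.11.5, scipy 1.17.1, Biopython 1.88, R 4.3.3, edgeR 4.0.16 and DESeq2 1.42.0.

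Members and lists were chosen with earlier results of these data known. Named were all members in all gates, up to 5 called genes of each list by smallest p, and the 3 genes most like Bcl2, Bcl2l11 and Bcl2a1b. Alternatives were DESeq2, no filter on low counts, other library sizes, a replicate block, thinning to 1000 UMIs, other limits on cells (no upper limits, mitochondrial limit of 5%), a ribosomal limit of 60%, doublet removal (Scrublet), stricter gates, no cycling cells, no Foxp3 cells in the CD4 T gate, summed Bcl2a1 copies and each library left out. The B against CD8 T comparison and B gate cells with an Ighd UMI were added after seeing the data, and 1 added alternative for the T cell gates is not reported here. Genes on the opposite strand, counted as genes of their own, overlap Bcl2 (D630008O14Rik), Bcl2a1d (Gm10634) and Bak1 (Ggnbp1). Genes on the same strand, not among those counted, overlap Bcl2 (Mir3473f and Gm37053) and Bcl2a1b (Gm29094). The strand setting of the counting is not given. Protein sequences were not used here.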

Additional observations from a re-analysis of the deposited data

Results flagged for a closer look

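Between lymphocyte types, the EV effect differed for 1 member, Bcl2, in a test of the difference itself. It was -0.65 (log2) for the B minus the CD4 T gate and -0.95 for the B minus the CD8 T gate. Of all genes 1.79% and 1.71% were called in these 2 pairs. In both pairs the ratio of the B to the T cell level was lower in 2 of 2 EV libraries than in either control library. The share of all genes with ratios so apart was not counted. The second pair was tested because the opposite signs had been seen.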

How the results depend on the processing

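Over 538 repeats of the members' EV changes under alternative settings, 465 kept the sign with no change of call, 52 turned the sign, 17 became called and 4 lost their call. The 465 include DESeq2 repeats that had no adjusted p and kept the sign of a change not called. The lower EV effect on Bcl2 in B than in CD4 T or CD8 T cells was called in all 13 alternatives of each pair. With 2 libraries a group, counts of called genes swung widely, and low genes rested on few molecules, such as Pmaip1 in Tregs on 11 to 21 UMIs per library. The cause of the changes below was not tested.

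Genes called in the B gate, 338 as reported, were 688 with the other limits on cells, 191 with the stricter gates and 1392 without the filter on low counts. The CD4 T gate, at 130, gave 71 with cells thinned, 270 with the stricter gates, 77 without cycling cells, 772 without the filter and 277 without Foxp3 cells. The CD8 T gate, at 270, gave 38 with cells thinned, 120 with the other limits on cells, 857 without the filter and 170 with DESeq2. The Treg gate, at 11, gave 0 with the other limits on cells and without cycling cells, 5 without doublets, 2 with the stricter gates and 154 without the filter. Members called in the B gate were 1 with the other limits on cells, without the filter and with DESeq2 (0 as reported), and in the CD8 T gate 0 with cells thinned, with the other limits on cells and without cycling cells (1 as reported). For the difference between the CD8 T and CD4 T effects, 1 member was called with the stricter gates, no cycling cells and no filter (0 as reported), and for Tregs 1 with the other limits and no filter (0 as reported). Fewer levels were called with cells thinned, 2 in place of 6 for CD8 T against CD4 T and 4 in place of 8 for Tregs, where 7 and 6 members could be tested.

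With the replicate number as a block, 1182 of 13267, 788 of 11932, 1018 of 12283 and 112 of 8876 genes were called in the B, CD4 T, CD8 T and Treg gates. Without the block 2.55%, 1.09%, 2.2% and 0.124% of all genes were. Members called with the block were 3 of 10 in the B gate (Bcl2, Pmaip1 and Bmf), 1 of 9 in the CD4 T gate (Bcl2l11) and Bcl2 again in the CD8 T gate. The deviations of same-numbered libraries correlated at 0.03, 0.06, 0.11 and -0.06 in these gates over only 2 pairs, and no label says that a number marks a shared batch, so the numbers were not read as a pairing.

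With 1 library left out, 97 to 2584, 94 to 2077, 187 to 2168 and 18 to 136 genes were called in the B, CD4 T, CD8 T and Treg gates, with 0 to 2 members in the B gate, 0 to 4 in the CD4 T gate, 0 to 2 in the CD8 T gate and 0 to 1 for the difference between CD8 T and CD4 T cells. The lone library of a group was taken to vary like the other group. Log2 changes that turned sign ran in the B gate from -0.12 to 0.24 for Mcl1, -0.22 to 0.17 for Bcl2a1b and -0.25 to 0.34 for Bcl2a1d. In the CD4 T gate they ran from -0.00020 to 0.33 for Bcl2, -0.19 to 0.21 for Bcl2l1, -0.23 to 0.20 for Bcl2a1d, -0.11 to 0.28 for Bbc3 and -0.62 to 0.10 for Pmaip1. CD8 T gate values ran from -0.70 to 0.20 for Bcl2a1d, -0.024 to 0.31 for Bbc3, -0.093 to 0.025 for Pmaip1 and -0.27 to 0.69 for Bmf. In the Treg gate they ran from -0.17 to 0.22 for Bcl2, -0.22 to 0.22 for Bcl2l1, -0.067 to 0.22 for Mcl1, -0.43 to 0.99 for Bcl2a1d and -0.31 to 0.16 for Pmaip1. Levels that turned ran from -0.026 to 0.13 for Bak1 in B against CD4 T cells and from -0.022 to 0.079 for Bcl2l11 in CD8 T against CD4 T cells.

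Among the other settings, the limits on cells turned Bcl2a1b in B cells (0.047), Bcl2a1d and Pmaip1 in CD4 T cells (0.19 and 0.31) and Bcl2, Bcl2a1d and Pmaip1 in Tregs (-0.052, -0.075 and 0.30). The stricter gates turned Bcl2l1, Bcl2a1d and Bbc3 in CD4 T cells (-0.10, 0.15 and -0.081), Pmaip1 in CD8 T cells (0.094), Bcl2l1 in Tregs (-0.51) and the level of Bcl2l11 in CD8 T against CD4 T cells (-0.018). In B gate cells with an Ighd UMI, a setting added after seeing the data, Bcl2a1d turned (-0.037). Without cycling cells Bcl2a1d turned in CD4 T cells (0.14) and Tregs (-0.18) and Bcl2l1 in Tregs (-0.077). Thinning turned Bcl2l1 in CD8 T cells (-0.12), Bcl2 in Tregs (-0.17) and the level of Bcl2l11 in CD8 T against CD4 T cells (-0.022). Without doublets Bcl2l1 and Bcl2a1d turned in Tregs (-0.14 and -0.15), and without Foxp3 cells Bcl2l1 in CD4 T cells (-0.053). Bcl2a1b in B cells was at 0.031 without the filter, 0.0090 with DESeq2 and 0.013 with the copies summed.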
